A study of Mus musculus with 9 samples.

Results

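The proneural basic helix-loop-helix (bHLH) factors described here are 7 mouse genes, Atoh7, Neurog1, Neurog2, Neurod1, Neurod2, Neurod4 and Neurod6, out of 23594 genes tested in retinal organoids. They were taken by gene name from the scanner files, which gave 8 probes of the 56503 gene probes used, 2 of them for Atoh7. Retinal organoids are eye-like aggregates grown here from mouse embryonic or induced pluripotent stem cells as floating serum-free cultures. The study compared 3 cell lines, chosen in order to lower the number of bipolar cells, at 3 differentiation days. The Bhlhb4 knockout line (B4KO) lacks a bHLH repressor gene now named Bhlhe23, the Isl1 knockout line (Isl1KO) lacks the LIM homeodomain gene Islet-1, and the wild-type line (WT) carries neither change. Each line was measured at DD10, DD16 and DD23, on 9 arrays in all. Each array held RNA pooled from 5 organoids and no combination of line and day was repeated, so the 3 lines stand in for replicates of a day and the 3 days for replicates of a line. The labels do not say whether each knockout line is 1 clone or which part of each gene was removed. The 3 B4KO arrays were on 1 slide and the Isl1KO and WT arrays on another, so slide and B4KO cannot be told apart. The day and the position of an array on its slide cannot be told apart either.

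Proneural bHLH factors pair with widely expressed E proteins and bind the DNA motif CANNTG, the E-box, to start neuronal programmes in dividing progenitor cells. Atonal and neurogenin relatives generally act first and NeuroD relatives act later, in cells that are leaving the cycle and differentiating. In the retina Atoh7 is needed to make ganglion cells, Neurog2 marks a wave of progenitors about to divide for the last time, and Neurod1 and Neurod4 act in photoreceptor, amacrine and bipolar cell differentiation, while Neurod2 and Neurod6 are best known from glutamatergic neurons of the cerebral cortex.

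The 2 Atoh7 probes are shown because this gene's DD10 levels differed between the lines, and they read separate stretches of it. The probe A_55_P2020760, at chr10:62563126-62563185 of mm9 on the plus strand, lies in the coding sequence of the second helix of the bHLH domain. The probe A_52_P684087, at chr10:62563489-62563548, lies further downstream, and its first 30 bases are given.
A_55_P2020760: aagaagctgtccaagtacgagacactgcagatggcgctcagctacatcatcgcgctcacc
A_52_P684087, first 30 bases: atgagtggacatcgcgaatgactttggact

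The 250 bases before the RefSeq start of 4 members are shown for their E-boxes, since their levels followed different courses over the days. Atoh7 was high at DD10 and DD16, Neurog2 was highest at DD16, and Neurod1 and Neurod4 were highest at DD23. They come from RefSeq on GRCm38.p6, which matched all 7 members, and capitals mark CANNTG, which reads the same pattern on both strands. The windows are chr10:63099535-63099784 (plus strand) for Atoh7, chr3:127632886-127633135 (plus) for Neurog2, chr2:79456637-79456886 (minus) for Neurod1 and chr10:130280255-130280504 (minus) for the first of 2 listed starts of Neurod4.
Atoh7: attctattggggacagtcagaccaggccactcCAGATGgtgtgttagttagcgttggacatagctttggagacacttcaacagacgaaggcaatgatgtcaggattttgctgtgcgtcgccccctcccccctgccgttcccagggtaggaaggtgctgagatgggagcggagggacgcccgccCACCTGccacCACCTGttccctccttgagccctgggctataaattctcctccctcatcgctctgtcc
Neurog2: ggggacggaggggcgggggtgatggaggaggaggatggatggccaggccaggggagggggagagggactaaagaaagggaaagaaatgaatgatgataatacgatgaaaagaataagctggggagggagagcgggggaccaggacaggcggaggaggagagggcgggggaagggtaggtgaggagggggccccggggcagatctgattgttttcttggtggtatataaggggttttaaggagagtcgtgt
Neurod1: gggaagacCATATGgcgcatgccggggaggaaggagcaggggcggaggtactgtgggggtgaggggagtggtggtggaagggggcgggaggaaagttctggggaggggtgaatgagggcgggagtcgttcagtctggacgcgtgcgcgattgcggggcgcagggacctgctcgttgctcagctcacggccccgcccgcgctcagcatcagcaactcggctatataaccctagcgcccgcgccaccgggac
Neurod4: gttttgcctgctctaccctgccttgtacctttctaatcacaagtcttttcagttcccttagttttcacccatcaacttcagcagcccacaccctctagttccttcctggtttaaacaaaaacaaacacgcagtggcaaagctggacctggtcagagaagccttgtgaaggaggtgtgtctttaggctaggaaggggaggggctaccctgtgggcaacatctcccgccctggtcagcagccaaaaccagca

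The Atoh7 window held 3 E-boxes, CAGATG starting at position −218 from the start site and CACCTG at −67 and at −57. The Neurod1 window held 1, CATATG, and the windows of Neurog2 and of both Neurod4 starts held none. Of the windows not printed, Neurod2 held 3, Neurod6 held 2 and Neurog1 held none. Of 32851 mouse promoter windows of the same length, 66.2% held CANNTG, with a mean of 1.16 matches, and 17.2% held CACCTG or its reverse complement CAGGTG, which are themselves CANNTG. These matches describe letters in a window only.

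All 7 members passed the filter, a signal that the scanner software flagged as clear of background on 3 arrays or more. Atoh7, Neurog1, Neurog2, Neurod1 and Neurod2 were well above background on all 9 arrays, Neurod4 on 8 and Neurod6 on 5. A level below is log2 of the processed intensity over the 75th percentile of the array, which ranged over arrays between 897 and 1137.6. Levels of different genes come from different probes and are not set against each other. Between 57.3% and 67.8% of gene spots per array were well above background and none was saturated. The knockouts were checked through their targets. The fitted log2 level of Isl1 differed by −1.37 between Isl1KO and WT organoids (SE 0.33, limma adjusted p = 0.44) and fell by 1.79 in Isl1KO relative to B4KO (SE 0.33, adjusted p = 0.0125). Isl1 was still well above background on all 3 Isl1KO arrays. Bhlhe23 differed by −1.45 between B4KO and WT (SE 0.45, adjusted p = 0.0691) and by −1.16 between Isl1KO and WT (SE 0.45, adjusted p = 0.607). In B4KO it was not well above background at DD16 or DD23, and at DD10 it was measured at −3.41 in B4KO against −3.2 in WT. Bhlhe23 was also not well above background in Isl1KO at DD23 (−6.56). Without the position of the deletions, a probe outside a deleted part would check nothing. The labelled tissue was read beside retinal markers: all 11 retinal progenitor genes listed, among them Pax6 and Rax, were well above background on all arrays. Of 12 listed forebrain genes, 10 or 11 were so too on every array, so detection alone does not tell these tissues apart.

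**Figure D1:**
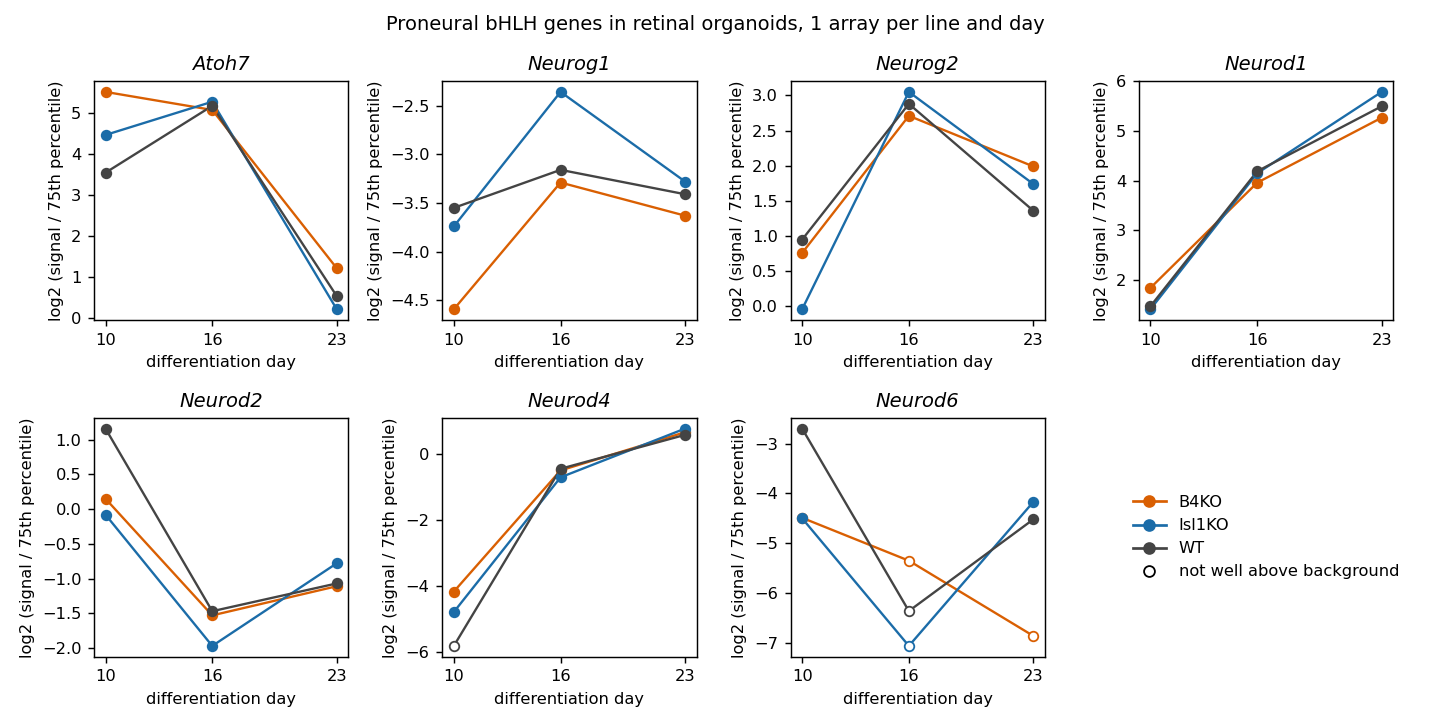
Level of each member (log2 processed intensity over the array's 75th percentile, y axis with its own range in each panel) against differentiation day for B4KO, Isl1KO and WT organoids, 1 array per point; open points were not well above background. Atoh7 is low at DD23 in all 3 lines, Neurog2 is highest at DD16 in all 3, and Neurod1 and Neurod4 are highest at DD23 in all 3.

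Most members changed with the day and none passed the test between lines. Between DD10 and DD16, 5 of the 7 passed, 4 higher and 1 lower, where 40.7% of all genes tested passed, 21.9% higher and 18.8% lower. Between DD16 and DD23, 4 of 7 passed, 2 higher and 2 lower, against 41.2% of all genes, 19.3% higher and 21.9% lower. Between DD10 and DD23 it was 5 of 7, 3 higher and 2 lower, against 60.7%, 31.6% higher and 29.2% lower. With so many genes passing, nothing particular to these 7 is read from the counts. The median member difference was 1.02 for DD16 minus DD10, beside 0.03 for all genes, and 0.67 for DD23 minus DD16, beside 0.01. In organoids, fewer cells of a type and less RNA per cell cannot be told apart.

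Atoh7, the competence factor for ganglion cells, was high at DD10 and DD16 and fell at DD23. At DD10 its level was 5.52 in B4KO, 4.47 in Isl1KO and 3.55 in WT organoids. The DD16 level was 5.08 in B4KO, 5.28 in Isl1KO and 5.18 in WT. The DD23 level was 1.22 in B4KO, 0.22 in Isl1KO and 0.54 in WT. The 3 lines were spread over nearly 2 log2 units at DD10 and lay close together at DD16, and every DD23 array lay below every earlier array. The fitted fall between DD16 and DD23 was −4.53 (SE 0.39, 3 arrays per day, limma adjusted p = 0.00106), a 23-fold lower level at DD23. The fitted DD16 minus DD10 difference was 0.67 (SE 0.39, adjusted p = 0.211) and did not pass. Line by line that difference was −0.44 in B4KO, 0.82 in Isl1KO and 1.64 in WT, so B4KO was already at its highest Atoh7 level at DD10. The coding probe printed above gave −0.49, 0.65 and 1.55 in the same lines, and between DD16 and DD23 it gave −3.87 in B4KO, −5.13 in Isl1KO and −4.47 in WT. Both probes put B4KO highest and WT lowest at DD10.

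Neurog2, a neurogenin of progenitors near their last division, was highest at DD16. Its level at DD10 was 0.76 in B4KO, −0.04 in Isl1KO and 0.95 in WT organoids. By DD16 it stood at 2.71 in B4KO, 3.05 in Isl1KO and 2.88 in WT. By DD23 it stood at 1.99 in B4KO, 1.74 in Isl1KO and 1.36 in WT. The days did not overlap. Neurog2 rose 5-fold between DD10 and DD16 (log2 difference 2.32, SE 0.29, limma adjusted p = 0.00282) and fell by 1.18 between DD16 and DD23 (SE 0.29, adjusted p = 0.0215). Its net difference between DD10 and DD23 was 1.14 (SE 0.29, adjusted p = 0.016). The last 2 calls were lost on the slide of Isl1KO and WT arrays alone, at −1.41 (adjusted p = 0.0586) and 1.09 (adjusted p = 0.0753). The fall was also lost without any 1 of Isl1KO DD16 (−0.96), Isl1KO DD23 (−1.31), WT DD16 (−1.2) or WT DD23 (−0.92), and the net rise without B4KO DD23 (1) or Isl1KO DD23 (1.01).

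Neurog1, the other neurogenin, with known roles in sensory and cortical neurogenesis, stayed dim, with processed intensities between 45 and 186. Its level at DD10 was −4.59 in B4KO, −3.74 in Isl1KO and −3.55 in WT organoids. On the DD16 arrays it was −3.29 in B4KO, −2.36 in Isl1KO and −3.16 in WT. On the DD23 arrays it was −3.63 in B4KO, −3.28 in Isl1KO and −3.41 in WT. Isl1KO at DD16 stood above the other 8 arrays. Neurog1 rose by 1.02 between DD10 and DD16 (SE 0.22, limma adjusted p = 0.0145), while the DD23 minus DD16 value of −0.5 did not pass (SE 0.22, adjusted p = 0.116). The rise was not called within the slide of Isl1KO and WT (0.89, adjusted p = 0.0827), nor without B4KO DD16 (1), Isl1KO DD10 (0.95) or Isl1KO DD16 (0.83).

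Neurod1, a differentiation factor of photoreceptors and amacrine cells, rose at each step. At DD10 its level was 1.84 in B4KO, 1.41 in Isl1KO and 1.47 in WT organoids. At DD16 the level was 3.96 in B4KO, 4.15 in Isl1KO and 4.19 in WT. At DD23 the level was 5.27 in B4KO, 5.79 in Isl1KO and 5.5 in WT. No 2 days overlapped and the lines differed by at most 0.52 on a day. The rise was 2.53 between DD10 and DD16 (SE 0.18, limma adjusted p = 0.000572) and 1.42 between DD16 and DD23 (SE 0.18, adjusted p = 0.00277). Over the whole span it came to 15.4-fold (log2 difference 3.95, SE 0.18, adjusted p = 4.79e-05). Within the slide of Isl1KO and WT the 3 differences were 2.73, 1.47 and 4.21, all still called.

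Neurod4, also known as Math3, which acts with other bHLH genes in amacrine and bipolar cell specification, rose at both steps. At DD10 its level was −4.18 in B4KO and −4.8 in Isl1KO organoids, and in WT (−5.83) it was not well above background. At DD16 it was −0.5 in B4KO, −0.71 in Isl1KO and −0.45 in WT. At DD23 it was 0.66 in B4KO, 0.77 in Isl1KO and 0.58 in WT. The lines lay within 0.26 of each other at DD16 and within 0.19 at DD23. Neurod4 rose 20.9-fold between DD10 and DD16 (log2 difference 4.38, SE 0.34, limma adjusted p = 0.000707), a value in which the dim WT array counts at its measured signal. In WT alone the DD16 signal was at least 16.8-fold higher. With normexp background correction the first rise was 2.88 (adjusted p = 1.48e-05) and the whole span 4.01 (adjusted p = 7.03e-07), against 5.6 without it. The rise between DD16 and DD23 was 1.22 (SE 0.34, adjusted p = 0.0307). That second call was lost with quantile normalization (1.25, adjusted p = 0.0543), with no filter on dim probes (1.22, adjusted p = 0.0636), on the slide of Isl1KO and WT alone (1.25, adjusted p = 0.0589), and without B4KO DD16 (1.06), Isl1KO DD10 (1.22), Isl1KO DD16 (1.08), Isl1KO DD23 (1.17) or WT DD23 (1.07).

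Neurod2, a factor of cortical glutamatergic neurons, moved opposite to Neurod1 and Neurod4 between DD10 and DD16. At DD10 its level was 0.15 in B4KO, −0.08 in Isl1KO and 1.16 in WT organoids. The DD16 level was −1.53 in B4KO, −1.97 in Isl1KO and −1.47 in WT. The DD23 level was −1.11 in B4KO, −0.78 in Isl1KO and −1.07 in WT. Every DD10 array lay above every later one, and WT stood highest at DD10. Neurod2 fell by 2.07 between DD10 and DD16 (SE 0.28, limma adjusted p = 0.00369), or 4.19-fold, and its net fall to DD23 was −1.39 (SE 0.28, adjusted p = 0.00665). The DD23 minus DD16 value of 0.67 did not pass (SE 0.28, adjusted p = 0.107), though it was positive in all 3 lines.

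Neurod6, a close relative in cortical pyramidal neurons, was measurable on 5 arrays only. At DD10 its processed intensity was 48 in B4KO, 50 in Isl1KO and 174 in WT organoids, all well above background. By DD16 it stood at 22 in B4KO, 7 in Isl1KO and 11 in WT, none of them well above background. By DD23 it stood at 8 in B4KO, again not well above background, 52 in Isl1KO and 41 in WT. WT at DD10 was the brightest array. DD16 was at least 1.69-fold lower than DD10 (log2 difference −2.36, SE 0.83, limma adjusted p = 0.0662), where each dim array counts at the higher of its own signal and the lowest signal well above background. That difference passed with a trended robust prior (−2.36, adjusted p = 0.0382), on the slide of Isl1KO and WT alone (−3.11, adjusted p = 0.0304), and without B4KO DD16 (−3.38), B4KO DD23 (−2.36) or Isl1KO DD23 (−2.36). With normexp it was −0.65 (adjusted p = 0.0886).

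**Figure D2:**
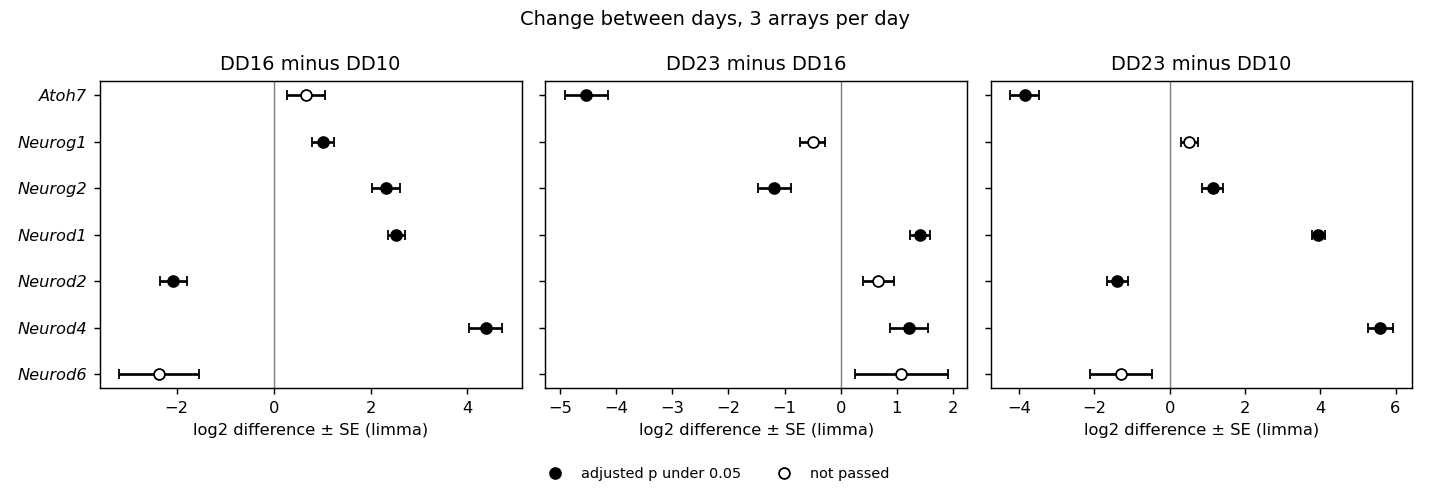
Fitted log2 difference between days for each member with its SE (x axis, limma, 3 arrays per day); filled points had an adjusted p under 0.05 over 23594 genes. Neurod1 and Neurod4 lie to the right of 0 in all 3 panels, Atoh7 far to the left at DD23, and Neurod2 to the left where DD10 is the earlier day.

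The lists of related genes give the surroundings of these changes. Their counts stand beside the shares of all genes tested. These were 21.9% higher and 18.8% lower between DD10 and DD16, and 19.3% higher and 21.9% lower between DD16 and DD23. Of 9 other proneural and neural bHLH genes tested, 4 rose and 0 fell between DD10 and DD16, with a median of 0.56 beside 0.03 for all genes. Olig2, measured on all arrays, rose by 3.43 (SE 0.15), and the amacrine and horizontal cell factor Ptf1a, not well above background on any DD10 array, was at least 54.6-fold higher at DD16. Between DD16 and DD23, 1 rose and 6 fell, with a median of −0.89 beside 0.01. Atoh8 fell by 2.52 (SE 0.20) and Bhlhe22 rose by 0.92 (SE 0.18). Bhlhe23, the gene targeted in B4KO, was among the 6, but was not well above background on 1 of the DD16 arrays and on 2 of the DD23 arrays.

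The E proteins Tcf3, Tcf4 and Tcf12, the partners of the proneural factors, all fell between DD10 and DD16, by 0.5, 0.64 and 0.41. Between DD16 and DD23, Tcf3 fell by 1.01 (SE 0.08) and Tcf12 by 0.44 (SE 0.09), and Tcf4 was at 0.06 (SE 0.13). Of the 8 antagonists, the Id proteins that sequester E proteins and the Hes and Hey repressors, 3 rose and 4 fell between DD10 and DD16. Hes5 (2.19, SE 0.23) and Hey1 (0.92, SE 0.21) rose most and Id3 (−2.04, SE 0.17) and Id2 (−1.56, SE 0.16) fell most. Between DD16 and DD23, 1 rose and 4 fell, with a median of −1.06 beside 0.01 for all genes: Hes1 (−2.4, SE 0.20) and Id2 (−1.73, SE 0.16) fell most, and Hey2, not well above background on any DD16 array, was at least 1.79-fold higher at DD23.

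Of 17 genes known as early targets of proneural factors, 10 rose and 1 fell between DD10 and DD16, with a median of 0.69. The Notch ligands Dll4 (2.23, SE 0.20) and Dll3 (2.02, SE 0.18) rose most and Ebf2 fell (−2.6, SE 0.37). Between DD16 and DD23, 4 rose and 4 fell. The splicing factor Srrm4 (0.93, SE 0.15) and the zinc finger gene Insm1 (0.74, SE 0.21) rose most, and Ebf2 (−2.11, SE 0.37) and Dll4 (−1.47, SE 0.20) fell most.

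Among genes of the cell types these factors serve, 11 of 13 photoreceptor genes tested rose between DD10 and DD16. Between DD16 and DD23 it was 12 of 13, with none called lower in either step. Gnat1, also listed, did not pass the filter. Of all genes tested, 21.9% rose and 18.8% fell in the first step, and 19.3% rose and 21.9% fell in the second. Neurod1 and Neurod4 also rose in both steps, and a link to these genes was not tested. Of the 13, 6 were not well above background on some DD10 array, and such genes could pass the filter only through the days on which they are high. Crx, a photoreceptor factor measured on all arrays, rose by 4.13 (SE 0.19) and then by 1.52 (SE 0.19). The rod factor Nrl, dim on every DD10 array, was at least 67.6-fold higher at DD16, and recoverin, Rcvrn, dim on every DD16 array, at least 60-fold higher at DD23. Of 12 ganglion cell genes tested, 6 rose and 2 fell between DD10 and DD16, and 3 rose and 5 fell between DD16 and DD23. Atoh7 fell over the second interval, and a link to these genes was not tested. In the second step Pou4f2, a ganglion cell factor downstream of Atoh7, fell by 2.84 (SE 0.57) and Sncg by 2.3 (SE 0.39), while Thy1 (2.23, SE 0.40) and Isl2 (0.8, SE 0.22) rose. Of 11 retinal progenitor genes, 5 rose and 2 fell in the first step and 0 rose and 8 fell in the second. Of 14 amacrine and horizontal cell genes, 9 rose and 1 fell and then 5 rose and 5 fell, and of 7 bipolar cell genes tested, 5 rose and 1 fell and then 5 rose and 2 fell. These lists were drawn up with earlier results of the same arrays known.

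Genes of the forebrain, a tissue the cultures could also hold, were read beside Neurod2 and Neurod6. The summed signal of the 12 listed forebrain genes over the 75th percentile was 21.6 in B4KO, 25.1 in Isl1KO and 43 in WT organoids at DD10. On the DD16 arrays it was 11.6, 16.4 and 13.3 in the same lines, and at DD23 8.49, 11.1 and 10.4. Of 11 tested, 3 rose and 5 fell between DD10 and DD16, with 6 positive values and 5 negative ones and a median of 0.18 beside 0.03 for all genes. The cortical factors Emx1 (−2.93, SE 0.34) and Bcl11b (−2.52, SE 0.28) fell most, while Dlx1 rose (1.35, SE 0.38), as did Slc17a7 (2.14, SE 0.62), which was dim on 2 of the DD10 arrays. Of the defining markers, 10 or 11 of 12 were well above background on every array. Their part in the Neurod2 and Neurod6 values was not tested. Of 8 hindbrain and spinal cord genes, 1 to 5 were well above background on an array.

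Between the lines no member passed the test. For B4KO minus WT, 0 of 7 were called where 22% of all genes were, and 0 of 7 had an unadjusted limma p under 0.05. For Isl1KO minus WT, 0 of 7 were called where 0.00424% of genes were, that is 1 gene, and again 0 of 7 had an unadjusted p under 0.05. For Isl1KO minus B4KO, 0 of 7 were called where 21.9% of genes were, and 1 of 7, Neurog1, had an unadjusted p under 0.05. The knockout comparisons share the WT arrays, and those with B4KO also cross the slides.

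Atoh7 had 0.85 for B4KO minus WT (SE 0.39, limma adjusted p = 0.174) and 0.23 for Isl1KO minus WT (SE 0.39, adjusted p = 0.899). Neurod6 had −1.04 (SE 0.83, adjusted p = 0.41) and −0.71 (SE 0.83, adjusted p = 0.844) in the same comparisons, values that include dim arrays, since it was well above background on 1 of 3 B4KO, 2 of 3 Isl1KO and 2 of 3 WT arrays. Neurog1 had 0.71 for Isl1KO minus B4KO (SE 0.22, adjusted p = 0.0719), with Isl1KO above B4KO on all 3 days, and this passed with normexp background correction (0.44, adjusted p = 0.0391), with only probes above background on all arrays (adjusted p = 0.0482) and without WT DD10 (adjusted p = 0.0335). Neurod1 had −0.03 for B4KO minus WT and 0.06 for Isl1KO minus WT, with an SE of 0.18 for both.

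**Figure D3:**
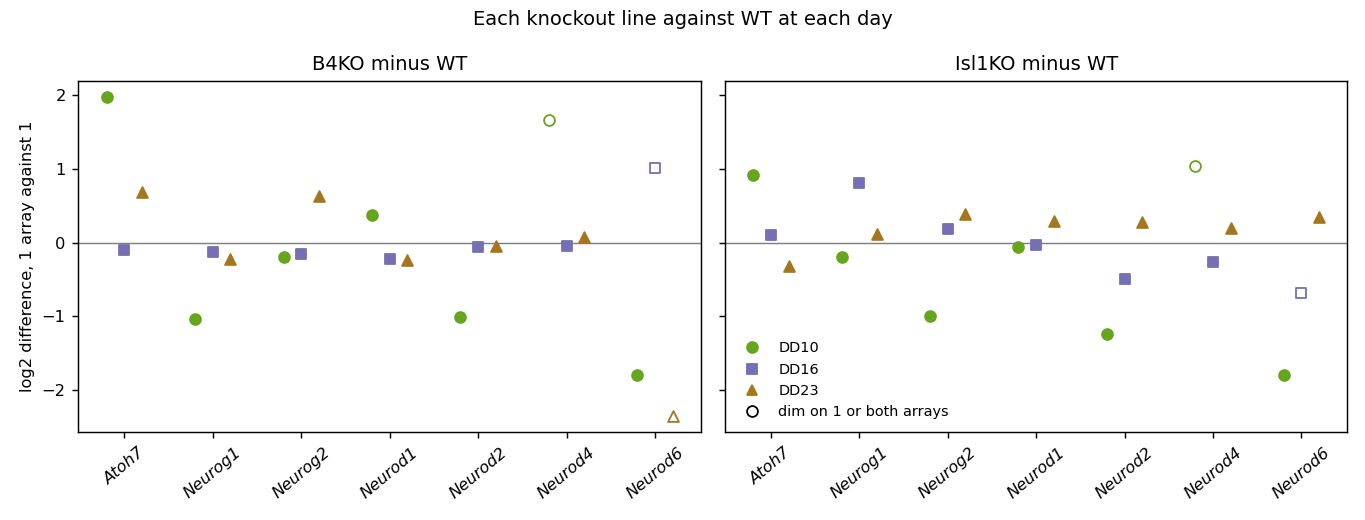
B4KO minus WT (left) and Isl1KO minus WT (right) for each member at DD10, DD16 and DD23 (y axis, log2 difference of 1 array against 1); open symbols had a dim array. Among the 3 days of each gene, DD10 lies farthest from 0 for Atoh7, at 1.97 and 0.92, and for Neurod2, at −1.01 and −1.24. Neurod6 lies at −1.79 and −1.8 at DD10, and its open B4KO symbol at DD23 lies at −2.35. Neurog1 lies at −1.03 and −0.19 at DD10, and Neurog2 at −0.2 and −0.99. The DD16 points lie mostly near 0.

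The values at DD10 are given by line, as single arrays with no replicate check. Both knockout lines are set against the same WT array. At DD10 the Atoh7 intensity was 49451 in B4KO and 25195 in Isl1KO, against 13237 in WT, or 3.93-fold and 1.9-fold higher than WT after scaling. The coding probe gave 11733 and 5768 against 2604, or 4.73-fold and 2.21-fold. Neurod2 at DD10 had 1195 in B4KO and 1076 in Isl1KO against 2525 in WT, 2.01-fold and 2.35-fold lower than WT. Neurod6 was 3.45-fold lower in B4KO and 3.47-fold lower in Isl1KO than in WT at DD10. For Neurod4 the B4KO signal at DD10 was at least 1.27-fold higher than the dim WT signal, and Isl1KO allowed no bound. Neurog1 was 2.05-fold lower in B4KO and 1.14-fold lower in Isl1KO than in WT, and Neurog2 1.15-fold and 1.99-fold lower. Neurod1 was 1.29-fold higher in B4KO and 1.04-fold lower in Isl1KO.

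A model with a separate term for DD10 in each knockout, added after these values were seen, called 0% of 23594 genes in either term. Its B4KO term was 1.68 for Atoh7 (SE 0.54, limma unadjusted p = 0.0345, adjusted p = 0.504), and 2 members, Atoh7 and Neurod4, had an unadjusted p under 0.05 where 8.73% of genes did. In its Isl1KO term these were Neurog2 (−1.27, SE 0.39, adjusted p = 0.669) and Neurod4, where 6.9% of genes did. Both Neurod4 terms rest on the WT array at DD10, on which it was not well above background. The terms for DD23 called 0% of genes as well, with 0 of 7 members at an unadjusted p under 0.05, where 6.06% of genes in B4KO and 4.92% in Isl1KO were.

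Markers of tissue composition differed at DD10 beside these members. Of 11 retinal progenitor genes, 11 in B4KO and 8 in Isl1KO were above WT, with medians of 1.25 and 0.86 beside 0.02 and 0.01 for all genes measured, Six6 (1.59) most in B4KO and Ccnd1 (1.83) most in Isl1KO. Of 10 forebrain genes measured, 7 in B4KO and 6 in Isl1KO were below WT, with medians of −1.02 and −0.77. Emx2 was at −1.32 and −1.17 and Tbr1, a marker of cortical neurons, at −1.29 and −1.11, but Dlx1 stood above WT at 1.89 and 0.86. Pou4f2 was at 2.13 and 1.1, the same direction as Atoh7, while the 11 ganglion cell genes had medians of 0.52 in B4KO and −0.36 in Isl1KO. The 8 other proneural and neural bHLH genes measured had medians of −0.34 in B4KO and −0.57 in Isl1KO. The 17 early proneural targets had medians of −0.17 and −0.52. The part of all these genes in the values of the members was not tested. At DD16 the retinal progenitor medians were 0.05 and 0.13 and the forebrain medians −0.05 and 0.03. The ganglion cell medians were −0.15 in B4KO and −0.46 in Isl1KO at DD16, with 7 and 10 of 12 genes below WT, and −0.52 and −0.83 at DD23, with 10 and 11 of 12 below WT.

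**Figure D4:**
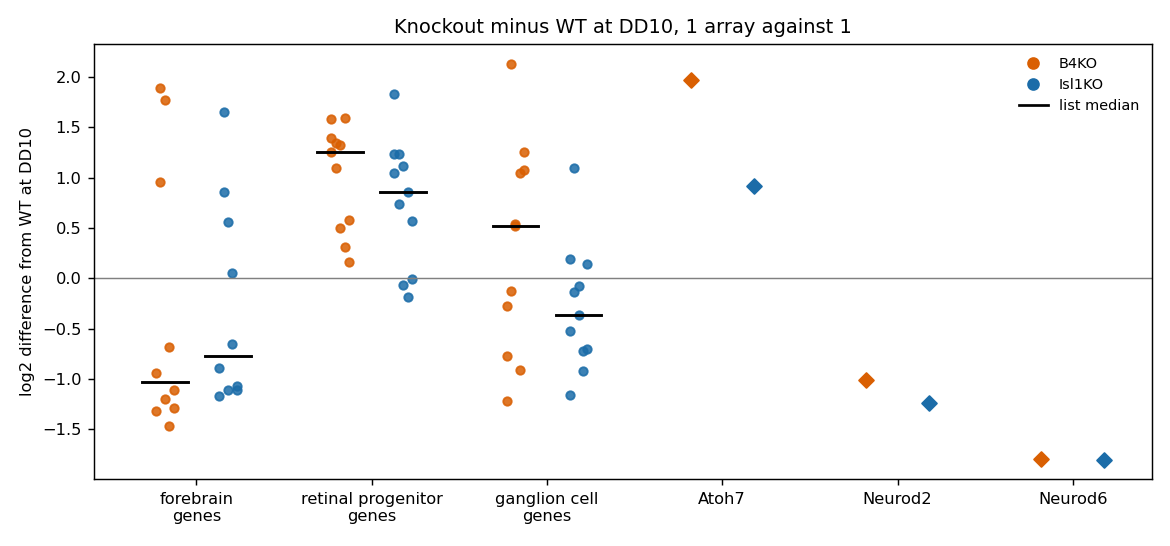
Log2 difference from WT at DD10 (y axis, 1 array against 1) of the genes of 3 lists, as points with the list median as a bar, and of Atoh7, Neurod2 and Neurod6 as diamonds, B4KO left of Isl1KO. Retinal progenitor medians are 1.25 and 0.86 and forebrain medians −1.02 and −0.77, with Atoh7 above 0 and Neurod2 and Neurod6 below it in both lines. Both lines are set against the same WT array, so their agreement is not independent. The other members are not drawn.

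Across the 9 arrays, which share the 3 lines and days, Neurod1 and Neurod4 had Pearson r = 0.98, with Neurod4 dim on 1 array. Neurog1 and Neurog2 had r = 0.72 and Neurog2 and Neurod2 r = −0.81. Among 7327 other genes compared, those most like each member over the 9 arrays were named by their r. For Atoh7 they were Ctdsp2 (0.992), Glipr2 (0.992) and Rhobtb3 (0.984). For Neurog2 they were Rhbdd1 (0.984), Pcgf5 (0.981) and Ero1a (0.969), and for Neurog1 Col26a1 (0.966), Hsf4 (0.966) and Zfp652 (0.951). Neurod1 was most like Cntn1 (0.998), Elmod2 (0.998) and Galnt13 (0.997), and Neurod4 most like Cxcl14 (0.997), Cabp1 (0.996) and Otop3 (0.996). Neurod2 was most like Pdgfra (0.974), Tshz1 (0.969) and Shisa7 (0.962). Neurod6 was most like Shisa7 (0.856), Pdzph1 (0.855) and Kcna1 (0.852), values that include the 4 arrays on which it was not well above background.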

How the data were processed

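Total RNA of 9 pooled organoid samples was labelled with Cy3 and hybridised to 1-colour Agilent arrays, 1 array per line and day, per the labels. The deposited scanner files hold processed intensity per spot, which the submitters' processing notes credit to Agilent Feature Extraction 12.0.3.1, run by the authors. The authors' deposited value table, checked against them, equals this intensity over a constant per array for spots above 1, within 0.00455 relative deviation. From the 59305 gene spots per array, spots of 1 probe were averaged and 102 probes with outlier flags left out. The values are log2 of the deposited intensity minus log2 of the array's 75th percentile. A gene is its brightest probe well above background on at least 3 arrays. Probes were named by RefSeq accession for 32994 and kept the file's name for 23611, and probe positions are on mm9, per the file headers.

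Day and line differences came from limma 3.58.1 in R 4.3.3, an additive model of line and day on all 9 arrays with 4 residual and 2.01 prior degrees of freedom, with Benjamini-Hochberg adjustment over all genes at 0.05. The spread is the departure from additivity, which may be technical or biological. A bound for a dim group uses the lowest signal well above background. Alternatives were the deposited table, quantile scaling, normexp with an offset of 50, other probe rules and priors, 1 slide alone, and each array left out. All members were named, with the list genes that moved most each way, defining markers, the targeted genes and the 3 most alike genes among those above background on 5 arrays and spanning 1 log2 unit. Some list genes are counted but not reported by name here. Members and lists were chosen with earlier results of these data known. The number of arrays limits the precision.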

Additional observations from a re-analysis of the deposited data

Results flagged for a closer look

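With 1 array per line and day, members are listed here whose differences had opposite signs in 2 lines or on 2 days. The listing covers differences between successive days and from WT, for the tested probe and arrays well above background. It set no limit on size, which gave 33 values. Isl1KO minus B4KO and DD23 minus DD10 were left out of it. Signs turned there too, as for Neurod6 between DD10 and DD23, at 0.33 in Isl1KO and −1.81 in WT. Sizes of at least 0.25 on both sides would have left 12 values and sizes of at least 0.5 none, and both limits were tried while the listing was set up. Apart from the model terms for DD10 and DD23, which called no member, these differences were not tested. Atoh7 between DD10 and DD16 moved by −0.44 in B4KO, 0.82 in Isl1KO and 1.64 in WT organoids.

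The following are log2 differences from WT at DD10, DD16 and DD23, in that order. Atoh7 had 1.97, −0.1 and 0.68 in B4KO, and 0.92, 0.1 and −0.32 in Isl1KO. Neurog2 had −0.2, −0.16 and 0.63 in B4KO, and −0.99, 0.18 and 0.39 in Isl1KO. Neurod1 had 0.37, −0.23 and −0.24 in B4KO, and −0.06, −0.04 and 0.29 in Isl1KO. Neurog1 in Isl1KO had −0.19, 0.8 and 0.12. Neurod2 in Isl1KO had −1.24, −0.5 and 0.28. Neurod4, not measured in WT at DD10, had −0.05 at DD16 and 0.08 at DD23 in B4KO, and −0.26 and 0.19 in Isl1KO. Neurod6 in Isl1KO had −1.8 at DD10 and 0.35 at DD23, with DD16 below background in both lines.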

How the results depend on the processing

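The calls of Atoh7, Neurod1 and Neurod2 between days were kept under all alternatives run, and the calls of Neurog1, Neurog2, Neurod4 and Neurod6 that changed are given beside their values in the report. Neurod2 also passed between DD16 and DD23 without WT DD10 (0.67). On the slide of Isl1KO and WT alone, Neurod6 also passed between DD16 and DD23 (2.37, adjusted p = 0.0417), but it was not well above background on either DD16 array. Neurog1 passed between DD16 and DD23 with quantile scaling (−0.65) and between DD10 and DD23 with normexp (0.34) or without WT DD10 (0.77).

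Genes called between Isl1KO and WT numbered 11 with normexp, 4548 with no filter, 14 with a trended robust prior and 3 on the slide of Isl1KO and WT alone. On that slide 4899 genes passed between DD10 and DD16, and with every probe on its own 21637 passed between DD10 and DD23. Members called between Isl1KO and B4KO came to 1 with normexp and with probes above background on all arrays. Neurod1 in Isl1KO minus WT came to 0 with quantile scaling. The cause was not tested.

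Leaving out each array gave 5899 to 9079 genes and 4 to 6 members for DD16 minus DD10, 6510 to 9337 and 2 to 5 for DD23 minus DD16, and 12038 to 14038 and 4 to 6 for DD23 minus DD10. Between lines it gave 3417 to 4621 genes for B4KO minus WT, 0 to 2 for Isl1KO minus WT, 3288 to 4789 for Isl1KO minus B4KO, and 0 to 1 members in the last.

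Signs of uncalled line differences turned as well when an array was left out, over these ranges. For B4KO minus WT, Neurog2 ran from −0.18 to 0.38 and Neurod1 from −0.26 to 0.13. For Isl1KO minus WT, Atoh7 ran from −0.22 to 0.51, Neurog2 from −0.41 to 0.21, Neurod1 from −0.1 to 0.22 and Neurod4 from −0.13 to 0.62. For Isl1KO minus B4KO, Neurog2 ran from −0.46 to 0.12, Neurod1 from −0.07 to 0.33, Neurod2 from −0.42 to 0.1, Neurod4 from −0.45 to 0.13 and Neurod6 from −0.59 to 1.35.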
